A study of Mus musculus with 48 samples.

Results

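A set of 9 genes of muscle glycogen metabolism was followed across genotype, tumor, and circadian time in the tibialis anterior (TA) muscle of mice. They were chosen by gene name from the 56748 genes in the table, by a rule that uses no measured value, although earlier results of these data were known. *Ugp2*, *Gys1*, and *Gbe1* encode enzymes that build glycogen, *Ppp1r3a* and *Ppp1r3c* encode subunits that bring protein phosphatase 1 to glycogen, *Pygm* encodes the phosphorylase that breaks glycogen down, and *Phka1*, *Phkb*, and *Phkg1* encode subunits of phosphorylase kinase. WT mice and FoxP1SkmKO mice, in which a homozygous floxed *FoxP1* allele is combined with Cre under the *ACTA1* promoter of skeletal muscle fibers, received KPC pancreatic cancer cells in the pancreas (KPC) or sterile PBS (control). All were male, 39 to 55 weeks old by the labels (the text of the study also gives other ages for the sequenced mice), and held in constant darkness before collection every 4 h from CT18 to CT38 (6 times), where CT18 is midnight and CT30 is noon by the clock of the earlier light cycle. There were 2 mice in each of the 24 groups and 48 libraries in all. The labels call the WT mice C57BL/6J, whereas the series record describes them as floxed mice without Cre, so a difference between the genotypes may also hold strain or allele differences, which cannot be told apart here.

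Glycogen is the glucose store of muscle fibers. UDP-glucose pyrophosphorylase makes the activated glucose, glycogen synthase adds it to the chain, and the branching enzyme sets the branch points. Phosphorylase kinase, which is switched on by calcium and by adrenaline signaling, activates phosphorylase, and protein phosphatase 1 held on glycogen by its targeting subunits reverses this and activates the synthase. The activity of these enzymes is set largely by phosphorylation, which RNA levels do not show.

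Each library held between 14480867 and 20787784 counts. The 9 genes marking skeletal muscle fibers together took 124300 to 153300 CPM (counts scaled to library size) in each library, and those of pancreas at most 1.077 CPM. The libraries were thus mainly of skeletal muscle, although these markers do not tell TA from other muscles. *Foxp1* itself had 87 to 216 counts per library and 0.630 ± 0.140 FPKM (fragments scaled to gene length and library size; SD, n = 12) in WT control mice against 0.578 ± 0.0682 FPKM (SD, n = 12) in FoxP1SkmKO control mice, and its difference of -0.11 ± 0.07 (log2, SE) was not called by edgeR's quasi-likelihood test (adjusted p = 0.459). The gene count covers all exons and all cells of the muscle, so it is no measure of the deleted part. Both WT control libraries of CT26 stood apart: the difference of long minus short genes was -0.38 and -0.27 (log2), where the other 46 libraries lay between -0.19 and 0.18. The summed liver genes reached 351 CPM in FoxP1SkmKO KPC replicate 2 of CT18 and 102 CPM in FoxP1SkmKO control replicate 1 of CT22, and were at most 15.3 CPM elsewhere. All 15 clock genes looked at passed the test for a 24 h rhythm described below, which 34.9% of all genes tested passed.

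Glycogen phosphorylase dominated the set. *Pygm* (chr19:6434429-6448489, + strand; all positions are of mm39) had a mean of 2908 FPKM over the 48 libraries and lay between 2602 and 3461 FPKM, which made it the gene with rank 19 by mean FPKM of all genes in the table. *Gbe1* (chr16:70110837-70366604, + strand), the branching enzyme, was the lowest, at 12.8 FPKM and between 10.87 and 15.25 FPKM. The ranges of *Pygm* and *Gbe1* overlapped no other member's, and the other 7 genes lay between them. *Ugp2* had a mean of 149 FPKM, *Gys1* of 133 FPKM, *Phka1* of 131 FPKM, *Ppp1r3c* of 116 FPKM, *Phkg1* of 74.7 FPKM, *Phkb* of 62.7 FPKM, and *Ppp1r3a* of 49.6 FPKM. Neighbors in this order overlapped: *Gys1* was above *Phka1* in 25 of 48 libraries and *Phka1* above *Ppp1r3c* in 26 of 48, so these 3 had no fixed order, whereas *Phkg1* was above *Phkb* in 47 of 48 and *Phkb* above *Ppp1r3a* in all 48. The 3 kinase subunits, which are held in one complex in equal numbers, thus had means from 62.7 to 131 FPKM. FPKM is scaled to the annotated gene length and not to the transcripts present, so these means do not give the ratio of their transcripts. All 9 genes passed the filter on low counts, and the lowest count of any member in any library was 918, in *Gbe1*.

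**Figure D1:**
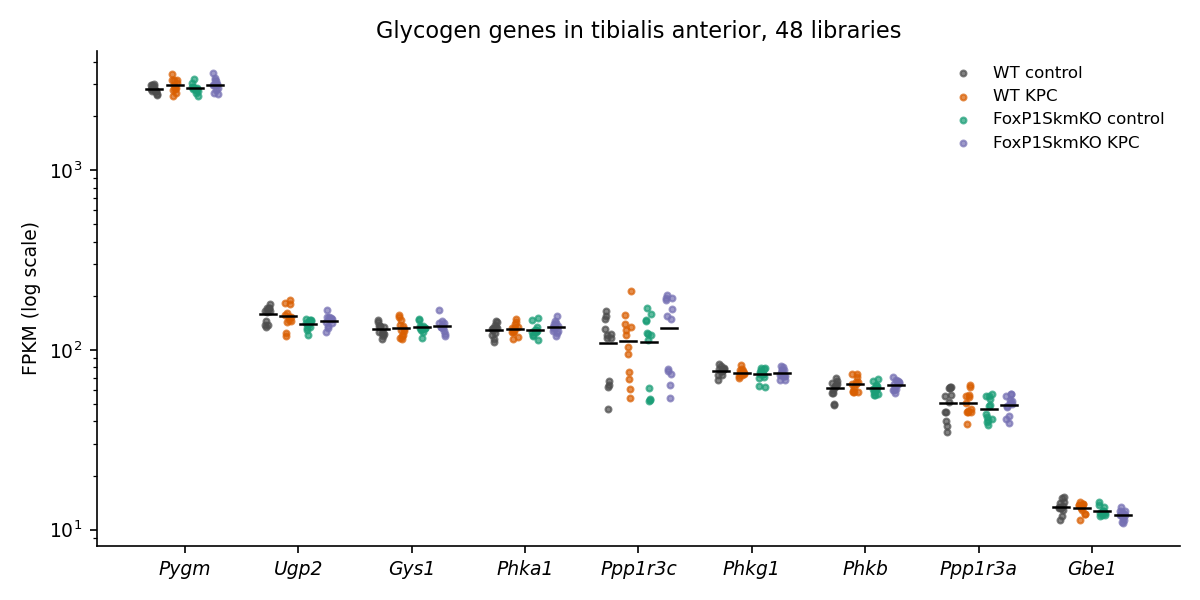
Level of the 9 glycogen genes in FPKM on a log axis, in order of their mean; each point is 1 library, colors are the 4 combinations of genotype and tumor, and black bars are the means of 12 libraries. *Pygm* lies above all others at 2602 to 3461 FPKM, *Gbe1* below all others at 10.87 to 15.25 FPKM, and *Ppp1r3c* has the widest spread.

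*Ppp1r3c* was by far the most variable member. Its product, also called PTG, holds protein phosphatase 1 on glycogen together with glycogen synthase and phosphorylase. Over the 48 libraries its coefficient of variation was 40.6%, from 47.2 to 211.7 FPKM, against 6.15% to 15.5% for the other 8 genes. Its values differed widely between circadian times. The 8 libraries of CT18 lay between 131 and 193 FPKM with a mean of 156, those of CT22 had a mean of 153 FPKM, those of CT26 of 104 FPKM, and those of CT30 lay between 47.2 and 74.96 FPKM with a mean of 60.6. At CT34 the mean was 71.8 FPKM and at CT38 it had returned to 153 FPKM. Every library of CT18 was thus above every library of CT30, and the time means differed by 2.58 times.

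The 24 h rhythm was tested over all 48 libraries with 1 cosine and 1 sine term shared by the 4 combinations of genotype and tumor, in edgeR on the counts, adjusted over 15637 genes. Of all genes tested, 34.9% passed at an adjusted p of 0.05 (45.0% at an unadjusted one), and 6 of the 9 glycogen genes did (7 unadjusted). *Ppp1r3c* had an amplitude (from the fitted mean to the peak) of 0.74 on the log2 scale with a peak at CT18.8 (adjusted p = 2.01e-11). *Ppp1r3a* followed with 0.22 and a peak at CT35.1 (adjusted p = 1.38e-06). The other 4 moved far less: *Phkb* by 0.10 with a peak at CT36.2 (adjusted p = 0.000360), *Gys1* by 0.09 at CT19.6 (adjusted p = 0.00323), *Ugp2* by 0.09 at CT34.8 (adjusted p = 0.0168), and *Phkg1* by 0.06 at CT27.6 (adjusted p = 0.0168). *Phka1*, *Pygm*, and *Gbe1* did not pass, with amplitudes of 0.06, 0.04, and 0.03 and adjusted p-values of 0.0946, 0.261, and 0.496 in the same test. By the clock of the earlier light cycle, *Ppp1r3c* and *Gys1* thus peaked shortly after midnight, *Ppp1r3a*, *Phkb*, and *Ugp2* in the late afternoon to early evening, and *Phkg1* in the morning. Without any 1 of 4 single libraries *Phkg1* missed the threshold (WT control replicate 1 of CT18, WT KPC replicate 2 of CT26, FoxP1SkmKO control replicate 2 of CT38, and FoxP1SkmKO KPC replicate 1 of CT30; adjusted p = 0.0514 to 0.0573), as it did without the low-count filter (adjusted p = 0.194), and so did *Ugp2* without WT KPC replicate 2 of CT22 (adjusted p = 0.0528). The median summed markers of other cell types also differed between times, which was not tested. For macrophages, the sum of the 6 markers had its highest median at CT22, 52.7 CPM (35.6 to 77.7), and its lowest at CT34, 22.3 CPM (17.1 to 37.0). The median sum of the fibroblast markers went from 392.5 CPM at CT18 (130.9 to 448.7) to 150.1 CPM at CT34 (101.2 to 390.5), that of the endothelial markers from 382.7 CPM at CT22 to 292.1 CPM at CT34, and that of the erythroid markers from 179.1 CPM at CT18 to 115.1 CPM at CT34. The adipocyte sum was instead lowest at CT18 (median 91.9 CPM) and highest at CT30 (119 CPM). That of the Schwann cell markers was lowest at CT18 (35.7 CPM) and highest at CT34 (42.6 CPM). The part of these cell types in these rhythms was not tested.

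**Figure D2:**
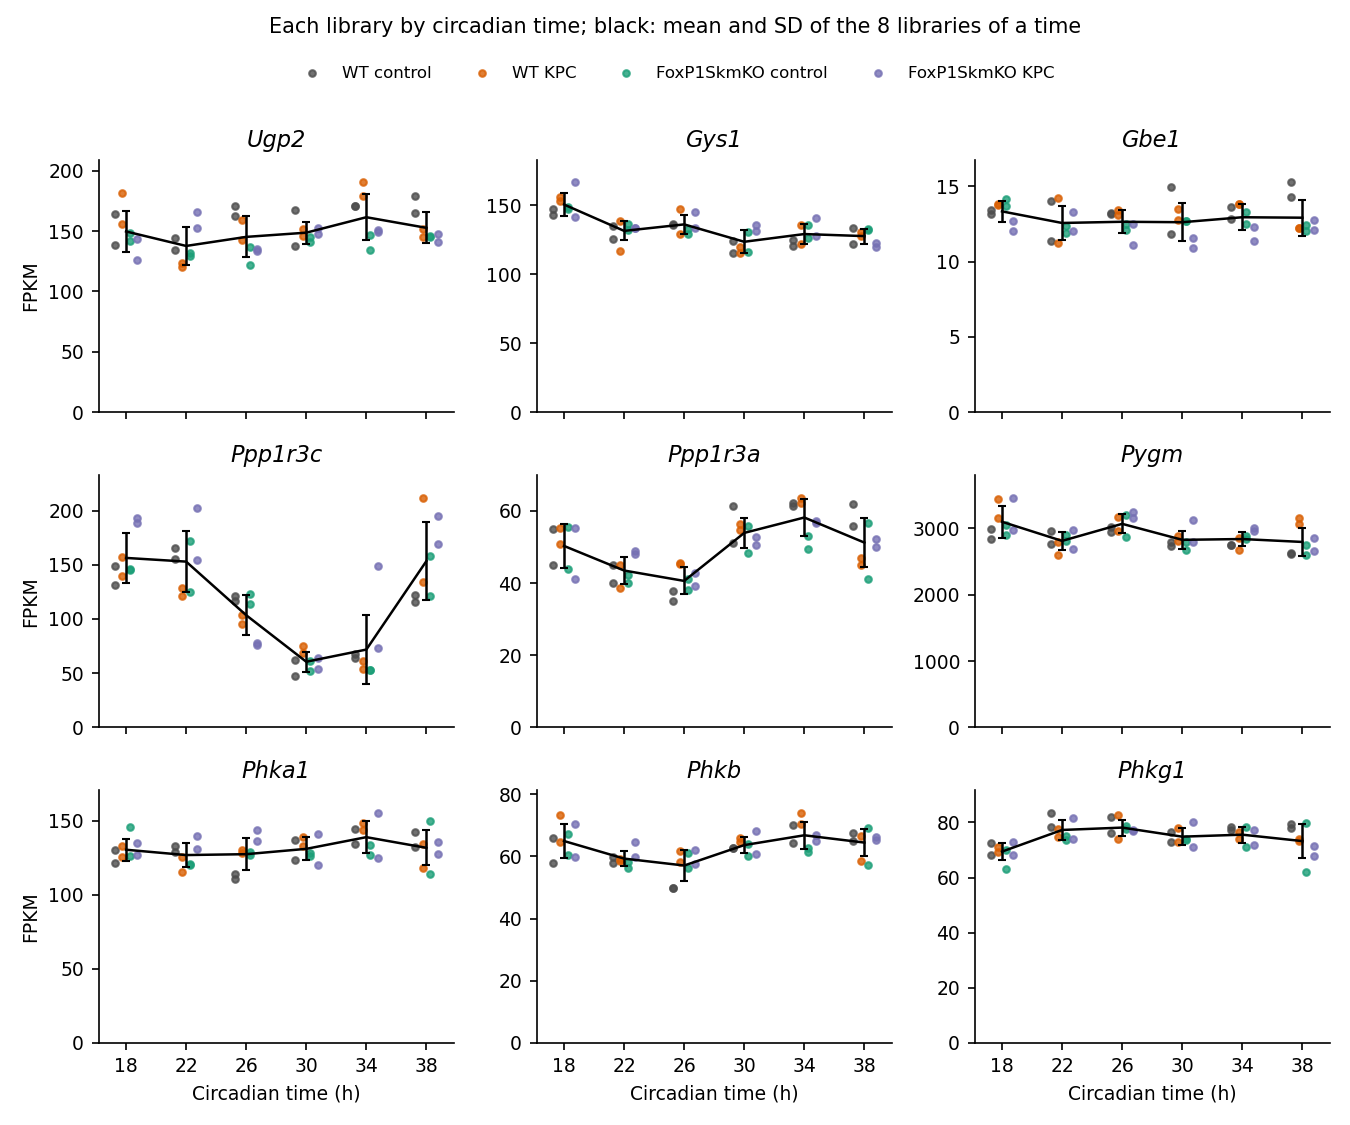
FPKM of each glycogen gene (vertical axes from 0) against circadian time in hours; colored points are single libraries and the black line joins the means of the 8 libraries of each time with their SD. *Ppp1r3c* falls from 156 FPKM at CT18 to 60.6 FPKM at CT30 and returns to 153 FPKM at CT38, *Ppp1r3a* is lowest at CT26, and *Pygm* and *Gbe1* show no sinusoid that passed the test.

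The upstream sequences of the 2 phosphatase targeting genes are shown because these had the largest amplitudes of the 9 genes and different peak times. Both stretches hold the first 200 bases of the RefSeq promoter window (250 bases before to 50 after the start, in the GRCm38.p6 table), found as an exact match in GRCm39, and both end upstream of the annotated gene start. The *Ppp1r3c* stretch is chr19:36714055-36714254 and the *Ppp1r3a* stretch chr6:14755324-14755523, both on the - strand and written 5′ to 3′, with motif matches in capitals. In *Ppp1r3c* the capitals mark CACGTT, an E-box-like motif, and CACGTG, the E-box that the core clock activators are known to bind; in *Ppp1r3a* none of the motifs searched was found.
Ppp1r3c: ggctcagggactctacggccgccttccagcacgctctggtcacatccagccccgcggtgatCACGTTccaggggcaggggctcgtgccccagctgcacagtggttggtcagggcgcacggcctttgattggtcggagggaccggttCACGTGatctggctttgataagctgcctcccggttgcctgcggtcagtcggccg
Ppp1r3a: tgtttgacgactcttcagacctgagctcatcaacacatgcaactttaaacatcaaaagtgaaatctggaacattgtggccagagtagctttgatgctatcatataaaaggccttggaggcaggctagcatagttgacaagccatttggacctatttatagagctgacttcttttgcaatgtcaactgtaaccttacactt
Windows of 300 bases were found for all 9 genes (10 windows, as *Ugp2* has 2 starts). On both strands, the E-box (CACGTG), the E-box-like motif (CACGTT), the D-box cores (TATGTAA or else TACGTAA), the core of the ROR element without its flanking bases (AGGTCA), the glucocorticoid half-site (AGAACA), and the forkhead motif (TGTTTAC) were searched. CACGTG was present in the window of 1 member, *Ppp1r3c*, at position -104 from the start, and in 7.15% of all 32851 windows in the table. CACGTT was present in 1 member, again *Ppp1r3c*, at position -189, and in 4.68% of all windows. The glucocorticoid half-site AGAACA was present in *Phkg1* alone, at position -222 on the other strand, and in 19.0% of all windows, and the other 4 motifs, held by 2.83%, 0.475%, 16.3%, and 3.65% of all windows in the order given, were in no member's window. Such matches describe the letters only, and binding was not measured in these libraries. In a separate measurement of FOXP1 binding (ChIP-seq) in gastrocnemius-plantaris muscle, the study names *Ppp1r3c* among the direct FOXP1 targets. It does so for genes that it reports to lose their rhythm in WT KPC mice but to keep it in FoxP1SkmKO KPC mice.

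Within each genotype and tumor group, a 24 h sinusoid was fitted to FPKM over 12 libraries, with a p-value under 0.01 as the study's threshold. Among genes with a mean of at least 1 FPKM the shares that passed were 10.5%, 8.84%, 9.19%, and 5.64% in WT control, WT KPC, FoxP1SkmKO control, and FoxP1SkmKO KPC mice. Of all genes, 4.92% passed in WT control, 4.22% in WT KPC, 4.07% in FoxP1SkmKO control, and 2.63% in FoxP1SkmKO KPC mice, and of the 9 glycogen genes 3 passed in WT control mice (*Ppp1r3c*, *Ppp1r3a*, and *Phkb*), 0 in WT KPC mice, and *Ppp1r3c* alone in both FoxP1SkmKO groups. In WT control mice *Ppp1r3c* had an amplitude of 51.8 FPKM around a basal level of 109.7 FPKM (F test of the fit, n = 12, p = 1.14e-05), and it was the only member whose p also passed after adjustment over all genes (adjusted p = 0.00941), where 0.551% of all genes passed in WT control, 0.475% in WT KPC, 0.414% in FoxP1SkmKO control, and 0.116% in FoxP1SkmKO KPC mice. The values behind this were 148 and 131 FPKM at CT18, 155 and 165 at CT22, 116 and 121.5 at CT26, 47.2 and 62.2 at CT30, 67.4 and 64.1 at CT34, and 116 and 122 at CT38. With n = 12 each, the FoxP1SkmKO control group had an amplitude of 53.6 FPKM (p = 0.000687) and the FoxP1SkmKO KPC group one of 73.6 FPKM (p = 0.000204). Among WT KPC mice it was 49.0 FPKM (n = 12, p = 0.0125), which was not called. With this threshold the study reports the rhythm of *Ppp1r3c* as lost in WT KPC mice and kept in FoxP1SkmKO KPC mice. The WT KPC group held the highest *Ppp1r3c* value of all libraries, 211.7 FPKM, beside 134 FPKM in the other mouse of CT38. Without that library, WT KPC replicate 2 of CT38 (n = 11), the amplitude was 42.6 FPKM and p was 0.000286, and on log2(FPKM + 1) with all libraries p was 0.00579. The rhythm of *Ppp1r3c* was not shown to differ between KPC and control mice in either genotype. An F test of the difference (n = 24 libraries) had p = 0.129 for WT and p = 0.0299 for FoxP1SkmKO mice, with adjusted p-values of 0.752 and 0.757. Of all genes 0.0% passed this test after adjustment in either genotype, and 5.07% in WT and 5.09% in FoxP1SkmKO mice had an unadjusted p under 0.05. Between the genotypes in control mice, where 4.17% of all genes had such a p and 0.0% passed, *Ppp1r3c* had p = 0.762 (n = 24, adjusted p = 0.920) and no member passed. The fitted peaks were CT20.1 in WT control, CT17.9 in WT KPC, CT19.6 in FoxP1SkmKO control, and CT17.4 in FoxP1SkmKO KPC mice, on a cycle counted from 0 to 24 h.

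At single times, *Ppp1r3c* differed between tumor-bearing and control mice with an unadjusted p under 0.05 in 3 cases. In FoxP1SkmKO mice at CT34, both control libraries were at 52.7 and 53.1 FPKM and the KPC libraries at 73.4 and 149 FPKM, a log2 fold change of 1.08 ± 0.20 (SE) in the edgeR fit of all 48 libraries. At CT26 the order was the reverse, with 123 and 114 FPKM in control and 78.3 and 75.9 FPKM in KPC mice (-0.63 ± 0.20). In WT mice at CT38, controls had 116 and 122 FPKM and KPC mice 134 and 212 FPKM (0.54 ± 0.20). In all 3 cases the pairs of libraries did not overlap, but neither did they at several other times. In WT mice both KPC libraries were also below both controls at CT22, CT26, and CT34 and above them at CT30, and in FoxP1SkmKO mice they were also above them at CT18 and CT38. None of the 3 was called, with adjusted p-values of 0.133, 0.345, and 0.367 (edgeR). At CT34 the difference between the genotypes' KPC effects, WT minus FoxP1SkmKO, was -1.26 ± 0.29 (unadjusted p = 0.000110, adjusted p = 0.575); without FoxP1SkmKO KPC replicate 1 it was -1.70 and called (adjusted p = 0.00141), and without replicate 2 it was -0.68 and not called (adjusted p = 1.0). The WT difference at CT38 was 0.18 without WT KPC replicate 2 and 0.83 without WT KPC replicate 1, and was called in neither case (adjusted p = 0.853 and 0.246). The CT34 result in FoxP1SkmKO mice differed with which of the 2 KPC mice was used. Left with 1 KPC mouse, which is then assumed to vary like the other groups, without replicate 1 the log2 fold change was 1.499 (adjusted p = 6.15e-05) and without replicate 2 it was 0.48 (adjusted p = 1.0). DESeq2 on the same counts called it (adjusted p = 0.0195). Averaged over the 6 times, *Ppp1r3c* was 0.26 ± 0.08 higher in FoxP1SkmKO KPC than in FoxP1SkmKO control mice, which was not called (adjusted p = 0.146). Without CT26 the average was 0.435 and called (adjusted p = 0.0227), and without FoxP1SkmKO KPC replicate 1 of CT34 it was 0.33 and called (adjusted p = 0.0170). Without CT34 it was 0.09 (adjusted p = 0.738), and without FoxP1SkmKO KPC replicate 2 of CT34 it was 0.16 (adjusted p = 0.396), neither of which was called. At CT18, where 1 of these KPC libraries carried liver RNA, the libraries with and without it had 193 and 189 FPKM.

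**Figure D3:**
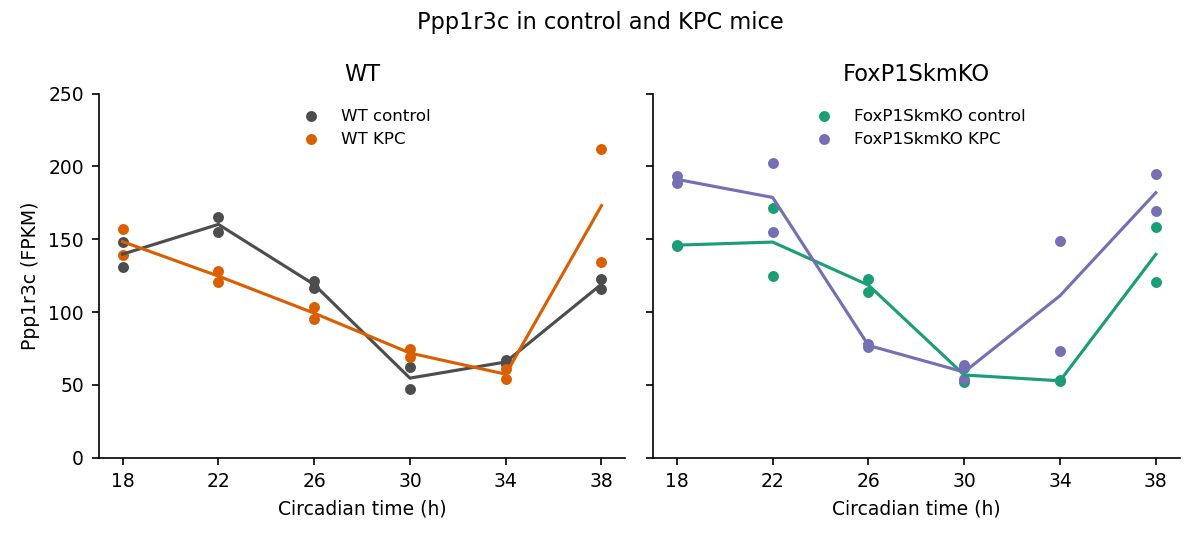
*Ppp1r3c* in FPKM against circadian time in hours, WT mice on the left and FoxP1SkmKO mice on the right; points are single libraries (2 per time) and lines join their means. All 4 lines are low at CT30, at 54.7 to 71.9 FPKM, and the FoxP1SkmKO KPC mice are split at CT34 between 73.4 and 149 FPKM.

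*Ppp1r3a*, which encodes the muscle-specific targeting subunit, was lowest at CT26 and highest at CT34 over all groups together. Its 8 libraries had means of 50.3 FPKM at CT18, 43.5 at CT22, 40.6 at CT26, 53.9 at CT30, 58.2 at CT34, and 51.2 at CT38. The libraries of CT26 (35.1 to 45.6 FPKM) did not overlap those of CT34 (49.3 to 63.6 FPKM). By group, WT KPC mice were instead lowest at CT22 (mean 41.75 against 45.41 FPKM at CT26). FoxP1SkmKO control mice were highest at CT30 (mean 52.12 against 51.17 FPKM at CT34). Taken alone, WT control mice passed the sinusoid test with an amplitude of 12.1 FPKM (n = 12, p = 0.000902), and the other 3 groups did not (amplitudes 5.44 to 7.57 FPKM, p = 0.0330 to 0.123). Its rhythm was not shown to change with tumor in WT mice (F test of the difference, n = 24, p = 0.163, adjusted p = 0.752). The lowest values were the 2 WT control libraries of CT26, 35.1 and 37.9 FPKM, which are the libraries in which long genes were low. Without them the WT control rhythm still passed (n = 10, p = 0.00541), and with the gene length trend of each library removed the shared rhythm had an amplitude of 0.22 (adjusted p = 1.36e-07). In WT mice at CT38 the KPC libraries (45.0 and 47.1 FPKM) were below the controls (55.9 and 61.9 FPKM) by 0.35 ± 0.13 on the log2 scale, with an adjusted p of 0.353 in edgeR.

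*Ugp2* (chr11:21271138-21321201, - strand) was the only member called for genotype. In FoxP1SkmKO control mice it had a mean of 139 ± 8.34 FPKM (SD, n = 12) and a range of 122 to 149, and in WT control mice 159 ± 15.6 FPKM (SD, n = 12) and a range of 134 to 179. The log2 fold change, averaged over the 6 times, was -0.19 ± 0.04 (SE), that is 0.876 of the WT level (edgeR, adjusted p = 0.00231). Among all genes, 1.58% were called lower in this comparison and 3.44% in either direction. At CT26 both WT libraries (162 and 171 FPKM) were above both FoxP1SkmKO libraries (137 and 122 FPKM), and the same held at CT22 (134 and 145 against 132 and 129), at CT34 (170.5 and 170.6 against 147 and 135) and at CT38 (165 and 179 against 145.5 and 146). At CT18 and CT30 the pairs overlapped. The call held without any single mouse (adjusted p = 0.00104 to 0.0120) and without any single time (adjusted p = 0.0029 to 0.0316). In KPC mice the same difference was -0.07 ± 0.04 and was not called (adjusted p = 0.477), although *Ugp2* was called there when CT22 was left out; the change of the genotype effect with tumor, tested as the difference of the KPC effects, had an unadjusted p of 0.0329 and an adjusted p of 0.764. Of the fast-fiber genes, in FoxP1SkmKO control mice 2 of 9 were called lower and none higher, with a median log2 fold change of -0.13, while their summed level had a median of 138300 CPM (132300 to 150900) in WT and 140200 CPM (133300 to 150100) in FoxP1SkmKO control mice. Their part in the *Ugp2* difference was not tested, and in a whole muscle fewer cells of a type and less RNA per cell cannot be told apart.

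**Figure D4:**
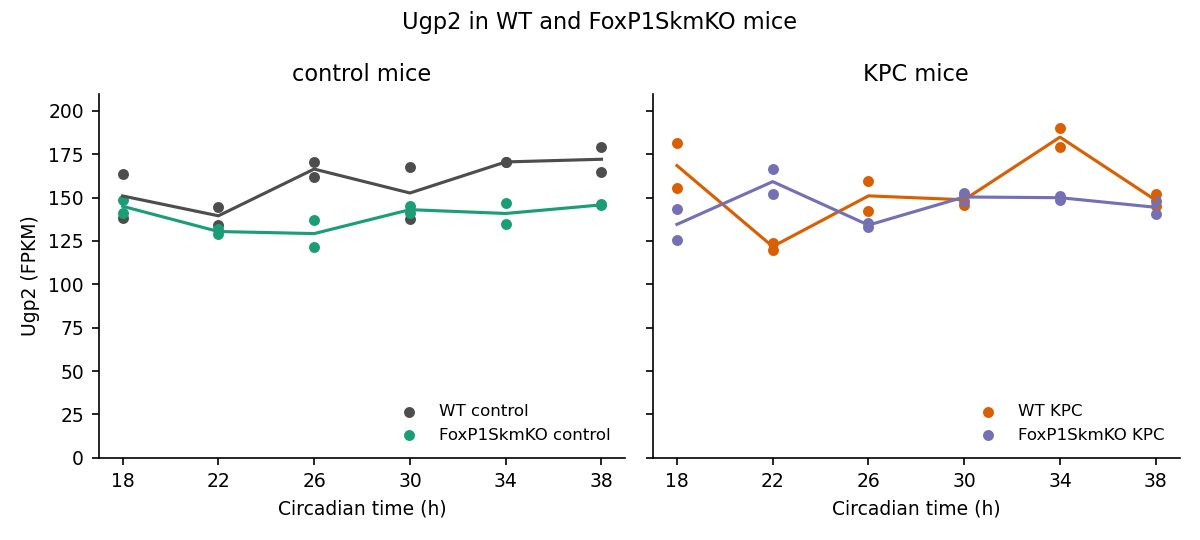
*Ugp2* in FPKM (axis from 0) against circadian time in hours, control mice on the left and KPC mice on the right; points are single libraries (2 per time) and lines join their means. In control mice the FoxP1SkmKO means of 129 to 146 FPKM lie below the WT means of 139.5 to 172 FPKM at every time, and in KPC mice the lines cross.

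At CT22 the *Ugp2* values of KPC mice lay below those of control mice in WT and above them in FoxP1SkmKO mice. In WT mice the controls had 134 and 145 FPKM and the KPC mice 124 and 120 FPKM, and in FoxP1SkmKO mice the controls had 132 and 129 FPKM and the KPC mice 152 and 166 FPKM. The difference of the KPC effects, WT minus FoxP1SkmKO, was -0.48 ± 0.13 (log2, SE; unadjusted p = 0.000731), which was not called over all genes (edgeR, adjusted p = 0.744). *Gys1* (chr7:45084268-45106043, + strand), muscle glycogen synthase, was highest at CT18, where its 8 libraries lay between 141 and 166.5 FPKM with a mean of 150.5, and lowest at CT30 (115 to 136 FPKM, mean 123.5), with no overlap between these times. By group, *Gys1* was also lowest at CT30, except in FoxP1SkmKO KPC mice (121.1 FPKM at CT38 against 133.8 FPKM at CT30). Its group means ran from 130.2 FPKM in WT control to 136 FPKM in FoxP1SkmKO KPC mice, and its 4 averaged log2 fold changes for tumor and genotype lay between 0.02 and 0.04 with standard errors of 0.03. *Gbe1* had 13.4 ± 1.13 FPKM in WT control, 13.2 ± 0.880 in WT KPC, 12.7 ± 0.690 in FoxP1SkmKO control, and 12.05 ± 0.726 in FoxP1SkmKO KPC mice (SD, n = 12 each). Among KPC mice it was lower in FoxP1SkmKO than in WT by 0.13 ± 0.04 on the log2 scale, which was not called (unadjusted p = 0.00300, adjusted p = 0.172).

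Phosphorylase was not called for tumor, genotype, or shared rhythm in edgeR. *Pygm* had means of 2816 ± 133 FPKM in WT control, 2965 ± 243 in WT KPC, 2856 ± 158 in FoxP1SkmKO control, and 2993 ± 231 in FoxP1SkmKO KPC mice (SD, n = 12 each). Both KPC differences were 0.07 ± 0.03 (log2, SE), and neither was called (edgeR, adjusted p = 0.242 in WT and 0.348 in FoxP1SkmKO mice). In WT mice at CT38 the difference was 0.25 ± 0.07 (unadjusted p = 0.00201, adjusted p = 0.244). By time, *Pygm* was highest at CT18 and CT26 (means 3100.0 and 3069 FPKM) and between 2796 and 2840.0 FPKM at the other times. These 2 maxima were not tested, and in WT KPC mice the mean of CT38 (3119 FPKM) lay above that of CT26 (3064 FPKM). *Phkb* (chr8:86567588-86788005, + strand), the regulatory beta subunit, was lowest at CT26 (mean of all libraries of that time 57.1 FPKM) and highest at CT34 (66.8 FPKM). By group, *Phkb* was lowest at CT26 in WT control and FoxP1SkmKO KPC mice only. In WT KPC mice it was lowest at CT22 (58.9 against 60.0 FPKM at CT26), as in FoxP1SkmKO control mice (57.2 against 58.7 FPKM). Its 2 lowest values, 49.7 and 49.8 FPKM, were again the WT control libraries of CT26, and the WT KPC libraries of that time were at 61.8 and 58.3 FPKM, a difference of 0.26 ± 0.09 (log2, SE; edgeR, adjusted p = 0.0713; DESeq2, adjusted p = 0.0287). With the gene length trend of each library removed it was 0.14 (adjusted p = 0.479). In that comparison 7.17% of all genes were called. In WT control mice alone the *Phkb* rhythm passed (amplitude 7.19 FPKM, n = 12, p = 0.00530) but did not without these 2 libraries (4.46 FPKM, n = 10, p = 0.0352), nor without any 1 of 4 single WT control libraries, replicates 1 and 2 of CT26 and replicate 1 of CT34 and of CT38 (n = 11, p = 0.0143 to 0.0170), whereas over all libraries it was called without them too (adjusted p = 0.00176). *Phka1* (chrX:101557581-101687852, - strand), the muscle alpha subunit, lay between 111 and 155 FPKM and *Phkg1* (chr5:129892262-129927390, - strand), the catalytic gamma subunit, between 62.2 and 83.4 FPKM. *Phkg1* was lowest at CT18, with a mean of 69.4 FPKM, and highest at CT26, with 78.1 FPKM. *Ppp1r3c* and *Ppp1r3a* are at chr19:36709131-36714053 and chr6:14713976-14755273, both on the - strand.

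Averaged over the 6 times, no member was called for tumor in either genotype. In WT mice 0 of 9 were called by edgeR, where 1.79% of all genes were, with 2 at an unadjusted p under 0.05 (*Pygm* and *Phkb*; 15.2% of all genes) and 0 called by DESeq2. The 9 log2 fold changes lay between -0.05 (*Ugp2*) and 0.08 (*Phkb*), with standard errors of 0.03 to 0.08, a median of 0.02, and a median over all genes of 0.00. In FoxP1SkmKO mice 0 of 9 were called, where 0.428% of all genes were, with 2 at an unadjusted p under 0.05 (*Ppp1r3c* and *Pygm*; 12.4% of all genes) and 0 by DESeq2. There the log2 fold changes lay between -0.07 (*Gbe1*) and 0.26 (*Ppp1r3c*), with a median of 0.06. The 2 KPC effects were also compared with each other. No member and 0.0% of all genes passed in edgeR or DESeq2, 1 member (*Ugp2*) had an unadjusted p under 0.05, and 6.52% of all genes did. Between the genotypes, 1 of 9 was called in control mice (*Ugp2*; 3 at an unadjusted p under 0.05, against 17.2% of all genes) and 0 of 9 in KPC mice, where 0.32% of all genes were called, 2 members (*Gbe1* and *Ppp1r3c*) had an unadjusted p under 0.05 (10.8% of all genes), and DESeq2 called 0. On log2(FPKM + 1), limma called 1 of 9 for genotype in control mice and 0 of 9 in each of the other 4 averaged comparisons. These 5 comparisons share mice, and the control mice of each genotype enter 3 of them, so the comparisons are not independent.

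**Figure D5:**
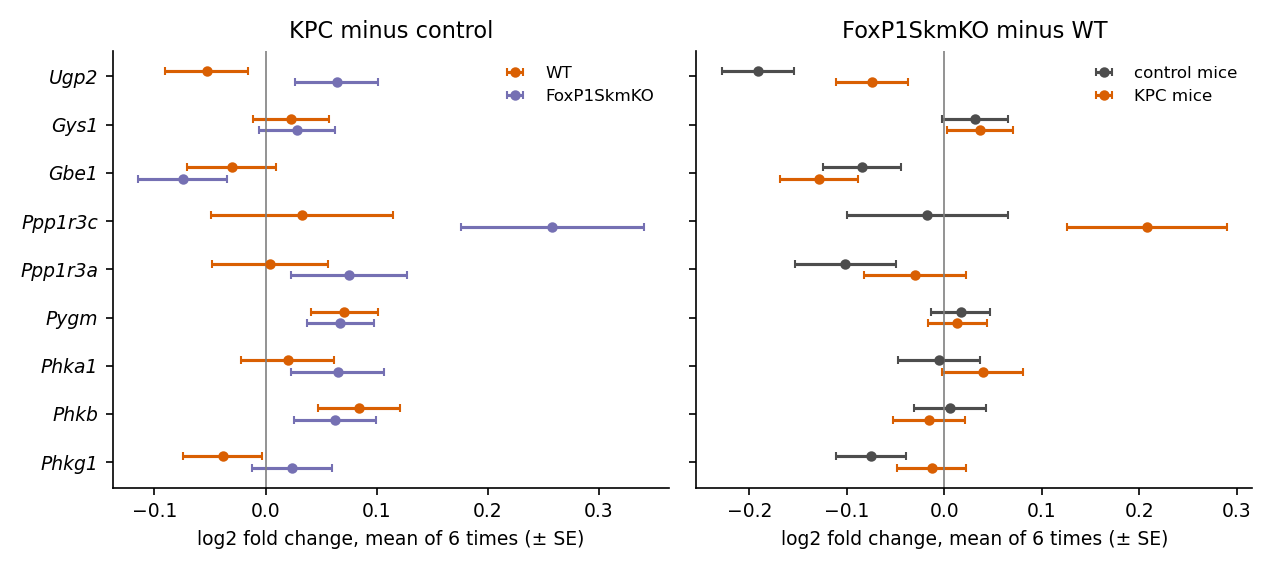
Log2 fold changes of the 9 glycogen genes, averaged over 6 circadian times, with SE from the edgeR fit: KPC minus control in each genotype (left) and FoxP1SkmKO minus WT in control and in KPC mice (right). Only *Ugp2* in control mice (-0.19) was called, and *Ppp1r3c* in FoxP1SkmKO mice (0.26) has the widest error bars beside the highest value.

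At the single times, the 54 tests of the members in each genotype gave no call in edgeR. From CT18 to CT38 the shares of all genes called were 0.0%, 0.0%, 7.17%, 0.0064%, 0.0%, and 0.0256% in WT mice and 0.0192%, 0.0%, 0.0384%, 0.0%, 0.0%, and 0.0064% in FoxP1SkmKO mice. The shares with an unadjusted p under 0.05 were 6.23%, 4.77%, 21.4%, 5.21%, 6.06%, and 9.82% in WT mice and 13.8%, 4.69%, 8.9%, 8.95%, 4.05%, and 8.05% in FoxP1SkmKO mice. The difference of the KPC effects gave 0 calls in 54 tests, where 0.0%, 0.0064%, 0.345%, 0.0%, 0.0064%, and 0.0% of all genes were called, with 5 members' tests at an unadjusted p under 0.05 (10.4%, 5.27%, 11.0%, 4.96%, 4.51%, and 4.18% of all genes) and 0 by DESeq2. In WT mice 9 of 54 had an unadjusted p under 0.05 and DESeq2 called 1 (*Phkb* at CT26), and in FoxP1SkmKO mice 3 of 54 did and DESeq2 called 1 (*Ppp1r3c* at CT34). Of the 9 in WT mice, 5 fell at CT38: *Pygm* and *Ppp1r3c* higher, and *Ppp1r3a*, *Gbe1*, and *Ugp2* lower in KPC mice. WT KPC replicate 1 of CT38 had a long minus short gene difference of -0.191 (log2), the lowest outside the WT control libraries of CT26. With the gene length trend of each library removed, the CT38 log2 fold change was 0.51 for *Ppp1r3c* and -0.31 for *Ppp1r3a*, and neither was called. Whether the KPC effect varied over the 6 times was tested with a 5-parameter F test, and 0 of 9 members were called in WT mice (0.883% of all genes; 4 members and 12.2% of all genes at an unadjusted p under 0.05, 0 members by DESeq2) and 0 of 9 in FoxP1SkmKO mice (0.0% of all genes; 1 member and 9.76% of all genes at an unadjusted p under 0.05). That member was *Ppp1r3c* (unadjusted p = 9.64e-05, adjusted p = 0.187), and DESeq2 called it. In edgeR it was also called without FoxP1SkmKO KPC replicate 1 of CT30 and without replicate 1 of CT34.

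Another 33 of 34 genes of the pathway passed the filter, and 16 of them passed the test for the shared 24 h rhythm, against 34.9% of all genes. By list these were 2 of 5 synthesis genes, 1 of 4 breakdown genes, 3 of 5 other phosphorylase kinase subunits, 3 of 7 phosphatase genes, and 7 of 12 regulators. Among them were *Pgm2l1*, a glucose-1,6-bisphosphate synthase (amplitude 0.23 on the log2 scale, peak CT35.7, adjusted p = 3.32e-06), and *Ppp1cb*, a catalytic subunit of protein phosphatase 1 (0.10, CT34.5, adjusted p = 6.56e-05). Between genotypes in control mice edgeR called 2 of the 33, both lower, where 3.44% of all genes were called and 1.58% were called lower. These were *Ppp1cb*, with a log2 fold change of -0.15 ± 0.03 (adjusted p = 0.00551), and *Calm3*, with -0.17 ± 0.04 (adjusted p = 0.0270). For tumor in WT mice 1 of the 33 was called by edgeR, where 1.79% of all genes were. This was *Prkag2*, a regulatory subunit of AMP-activated kinase, with a log2 fold change of -0.20 ± 0.05 (adjusted p = 0.0412). For tumor in FoxP1SkmKO mice and for the difference of the KPC effects, averaged over the times, edgeR called 0 of the 33. Of all genes, 0.428% and 0.0% were called in these comparisons. At the single times 1 of the 33 was called, a regulator that was higher in WT KPC than in WT control mice at CT26, where 7.17% of all genes were called.

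Across the 48 libraries, the genes whose log2 CPM followed each member most closely were listed as a description; all points share time of day, library depth, and tissue makeup, so the coefficients carry no test. *Ppp1r3c* ran most closely with *Nfil3*, a clock-controlled repressor (Pearson r = 0.916), and *Lrrc30* (0.897). *Ppp1r3a* ran with *Trpm7*, an ion channel with a kinase domain (0.911), and *Prkaa2*, the catalytic alpha 2 subunit of AMP-activated kinase (0.900). *Phkb* ran with *Wwp1*, a ubiquitin ligase (0.877). *Pygm* ran with *Pdk2*, a kinase of pyruvate dehydrogenase (0.779), and *Atp2a1*, the calcium pump of fast fibers (0.774), and *Phka1* with *Ecpas* (0.792) and *Adam9* (0.713). For *Ugp2* the closest genes were *Capza2* (0.729) and *Cul3* (0.710), for *Gys1* *Pom121* (0.712) and *Junos* (0.697), for *Phkg1* *Stac3* (0.726) and *Tmem117* (0.723), and for *Gbe1* *mt-Co1* (0.545) and *Ugp2* (0.532). Among the members themselves the strongest coefficient was between *Ppp1r3a* and *Phkb* (0.828), followed by *Phka1* and *Phkb* (0.671), and the lowest was between *Ppp1r3a* and *Ppp1r3c* (-0.377). *Ppp1r3a*, *Phkb*, and *Phka1* have gene lengths of 6965, 7417, and 6259 bases. Each had its lowest value in a WT control library of CT26, where long genes were low. The part of gene length in these coefficients was not tested. Of the kinase subunits, *Phkg1* had coefficients of 0.276 with *Phka1* and -0.042 with *Phkb*.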

How the data were processed

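RNA was measured in TA muscle of 48 mice. The authors aligned the reads and counted them per gene, and the deposited count values were raw read counts. The submitters' processing notes name HISAT2 2.0.5, DESeq2 1.20.0, and mm39, whereas the methods of the study name another aligner. The FPKM values were deposited by the authors and are scaled to gene length and library. The authors' signal values (counts divided by size factors within each comparison table) and their fold changes and p-values were not tested. Where a count was not listed (28541 values), it was recovered from FPKM and gene length, and all came out whole within 0.01 reads.

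Counts of 15637 genes passing edgeR's low-count filter were fitted with TMM scaling and 24 group means (edgeR 4.0.16 quasi-likelihood, R 4.3.3), tested as contrasts, and adjusted by Benjamini-Hochberg over all genes at 0.05. Sinusoids of 24 h were fitted by least squares to FPKM. Same-numbered replicates did not deviate together (median correlation -0.004, range -0.324 to 0.234), so no block was used; per the study's methods each library is a mouse, while the labels give only replicate numbers. Members and gene lists were chosen with earlier results of these data known. Named were all 9 members, called pathway genes (at most 3 of lowest p per comparison), the 2 genes most correlated with each member, and *Foxp1*; 2 genes that this rule names are not reported here. Alternatives were DESeq2 1.42.0, limma 3.58.1 on log2(FPKM + 1), other scaling, no filter, a replicate block, and leaving out mice or times; removing the gene length trend and both WT control CT26 libraries were added after seeing the data. The fits were tested on simulated data.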

Additional observations from a re-analysis of the deposited data

How the results depend on the processing

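The log2 fold changes followed under the alternatives, for *Ugp2*, *Gbe1*, *Ppp1r3c*, *Ppp1r3a*, and *Phkb*, kept their sign. Amplitudes and counts of members have no sign to change, and the other fold changes were not followed in this way. Without the low-count filter, edgeR set each gene's spread to the trend over 33218 genes, and the members called became 1 for tumor in FoxP1SkmKO mice, 1 for the difference of the KPC effects, 1 for genotype in KPC mice, 2 and 1 for a KPC effect that varies with time in WT and FoxP1SkmKO mice, and 5, 4, and 2 at the single times in WT mice, in FoxP1SkmKO mice, and for their difference. The shares of all genes called in the first 5 of these comparisons were then 1.59%, 0.313%, 1.41%, 2.43%, and 2.72%, and *Phkg1* lost its shared rhythm (adjusted p = 0.194). The shares at the single times were not computed. DESeq2 called 1 member for variation with time in FoxP1SkmKO mice, 1 at a single time in WT mice, and 1 in FoxP1SkmKO mice. Without CT26, 1 member was called for tumor in FoxP1SkmKO mice, and without CT22, 1 for genotype in KPC mice (*Ugp2*). With adjustment within each group, 1 of the 5 sinusoids passed. Leaving out single mice gave 0 to 1 members for tumor in FoxP1SkmKO mice, for its variation with time, and at the single times in FoxP1SkmKO mice and for the difference of the KPC effects. It gave 5 to 6 members for the shared rhythm, 4 to 7 for the sinusoids by group, and 1 for genotype in control mice. The cause was not tested. With the replicate number as a block, the counts of members called were 6 for the shared rhythm, 5 for the sinusoids by group, 1 for genotype in control mice, and 0 for the others, as without it. Over all genes, DESeq2 called 161 against 67 in edgeR for tumor in FoxP1SkmKO mice, 116 against 50 for genotype in KPC mice, and 368 against 138 and 52 against 0 for variation with time in WT and FoxP1SkmKO mice. With 2 mice per group and time, single-time differences rest on few animals.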
